A study of Mus musculus with 44 samples.

Results

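The axon guidance ligands and receptors are 71 of the 22682 gene symbols found in every count file: 36 ligand genes and 35 receptor genes. Members were chosen by name alone: semaphorins of classes 3 to 7, plexins, neuropilins, Slits, Robos, Eph receptors, ephrins, the Unc5 receptors, netrins, netrin-Gs, Dcc and Neo1. The method was translating ribosome affinity purification: anti-GFP beads pull down ribosomes carrying EGFP-L10a (IP), and the RNA on them is sequenced beside RNA of the whole homogenate (input). The study asked how labelled neurons of the mouse medial habenula (MHb) and of its target, the interpeduncular nucleus (IPN), differ from the surrounding tissue and among themselves, and what chronic nicotine changes in them. All mice were adults (over 8 weeks) on the B6J.Cg background, each library is 1 pool of mice, and every IP and input compared here comes from mice that carry the tag.

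The tagged ribosomes of the MHb came from the single transgenic line ChAT-TRAP (DW167), named for the acetylcholine-synthesis gene. In the IPN they came from Eef1a1-LSL.EGFPL10 mice that also carried Chrna5-Cre (SN83), Amigo1-Cre (NP231) or Epyc-Cre (KR363), so a labelled population is whatever cells the driver of that line has ever recombined. Nicotine IPs came from ChAT mice on 0.2% saccharin water with 500 mg/L nicotine tartrate for 6 weeks (2 pools, and 1 more with a saline injection 3 h before collection), Amigo1 mice on the same water (3 pools), and Epyc mice with osmotic minipumps giving 24 mg/kg nicotine free base a day for 10 or 11 days (2 pools). IPs without nicotine were 9 in the ChAT line (4 baseline, which the library names call saline, 1 saline pump, 2 saccharin water, 2 saccharin water with a saline injection), 3 baseline IPs in the Chrna5 line, 3 in the Amigo1 line (baseline pools 1 and 4, 1 saline pump) and 5 in the Epyc line (baseline pools 1 to 4, 1 saline pump). The library names of the 4 baseline ChAT IPs and of the ChAT saline pump IP also carry the label WT, which the other ChAT names lack. The names do not say what it refers to, and its part in the results was not tested. Saline pumps ran for longer in the ChAT line than in the Amigo1 and Epyc lines. Inputs numbered 4 in each line, none from nicotine mice. Of the baseline ChAT inputs, 1 came from left and the other from right habenulae of 9 males, Chrna5 pool 4 was 6 males, and males and females were otherwise pooled per the study's design text.

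Guidance ligands are secreted or membrane-bound cues that attract or repel growing axons, and the matching receptors sit on the growth cone. Netrins act through DCC and UNC5 receptors, Slits through Robo receptors, class 3 semaphorins through complexes of a neuropilin with a plexin, other semaphorins through plexins directly, and ephrins through Eph kinases, with signalling also running back into the ephrin-bearing cell. Habenular axons reach the IPN through the fasciculus retroflexus, whose growth in rodents depends on several of these systems. In the adult brain many of the same genes stay expressed and act at synapses.

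Levels are CPM, a gene's counts relative to its library's total, scaled over all 44 libraries; differences are log2 differences ± SE from edgeR's quasi-likelihood test, where 1 means 2-fold, and a gene was called at a Benjamini-Hochberg adjusted p under 0.05 over all genes tested. Libraries held 7908401 to 70481509 counts in genes. The lowest was the Amigo1 saline pump IP, 1 of the 3 Amigo1 IPs without nicotine. It also had the highest shares of reads outside genes (27.28%) and not uniquely aligned (57.00%) of all 44 libraries. The part of this in the Amigo1 results was not tested. Values of the Amigo1 IPs are given in the order baseline 1, baseline 4, saline pump, and those of the Epyc IPs as baseline 1 to 4, saline pump. Chat stood at 81.1 to 186 CPM in ChAT IPs and 8.93 to 14.0 CPM in ChAT inputs, Epyc at 0.482 to 3.00 CPM in Amigo1 IPs and 9.15 to 23.5 CPM in Epyc IPs, and Chrna5 at 314.5 to 514 CPM in Chrna5 IPs and 99.3 to 121 CPM in Chrna5 inputs, while Amigo1 itself did not separate the lines (113 to 176 CPM in Amigo1 IPs, 139 to 182 CPM in Epyc IPs). Of 10 astrocyte markers, 10, 10, 9 and 10 were lower in the IPs of the ChAT, Chrna5, Amigo1 and Epyc lines than in their inputs, as were 10 of 10 oligodendrocyte markers in each line. ChAT baseline IP 1 stood apart: its astrocyte markers summed to 1029 CPM, where the lowest and the median of the 9 ChAT IPs were 152 and 297 CPM, against 1724 to 1983 CPM in the ChAT inputs. The files use 3 gene lists. All inputs, the Chrna5 IPs and 3 ChAT IPs share the first, all Amigo1 and Epyc IPs and 2 of the ChAT IPs without nicotine share the second, and the 4 ChAT baseline IPs have the third, so in the Amigo1 and Epyc lines list and fraction cannot be told apart.

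Amigo1 and Epyc neurons of the IPN differed in many of these genes, and receptors formed the larger share. Of 62 members tested, 14 were higher and 9 lower in Amigo1 IPs than in Epyc IPs (37.1%), against 8.05% of all 13466 genes tested (3.96% higher, 4.09% lower). Among receptors 11 of 30 were higher and 4 lower, and among ligands 3 of 32 were higher and 5 lower. Whether receptors and ligands differ in this was not tested. The median absolute log2 difference was 0.69 over the members tested and 0.39 over all genes. The 9 members not tested, at low counts, were Efna1, Efna4, Epha1, Epha2, Ephb4, Ntn5, Robo3, Robo4 and Sema3g. All 8 libraries of this comparison share a gene list. Astrocyte marker sums overlapped (486 to 797 CPM in Amigo1 IPs, 564 to 887 CPM in Epyc IPs), and of 10 markers each, 1 astrocyte marker was lower and no oligodendrocyte marker was called, though the list medians were 0.60 and 0.53. Marker sums did not overlap for endothelial and mural cells (13.2 to 53.8 CPM in Amigo1 IPs, 1.93 to 11.8 CPM in Epyc IPs; median 1.69, 0 of 5 tested called), microglia (6.03 to 16.3 CPM in Amigo1 IPs, 3.35 to 4.73 CPM in Epyc IPs; median 1.24, 0 of 6 called) and dopamine and serotonin neurons (353.5 to 715 CPM in Amigo1 IPs, 102.5 to 298 CPM in Epyc IPs; median 0.56, 1 of 6 higher). The part of these cell types in the result was not tested. Fitted together with the nicotine IPs, which vary far more, 3 of 67 members were called (0.581% of all genes), all higher in Amigo1 IPs: Unc5d, Sema6a and Sema5a.

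**Figure D1:**
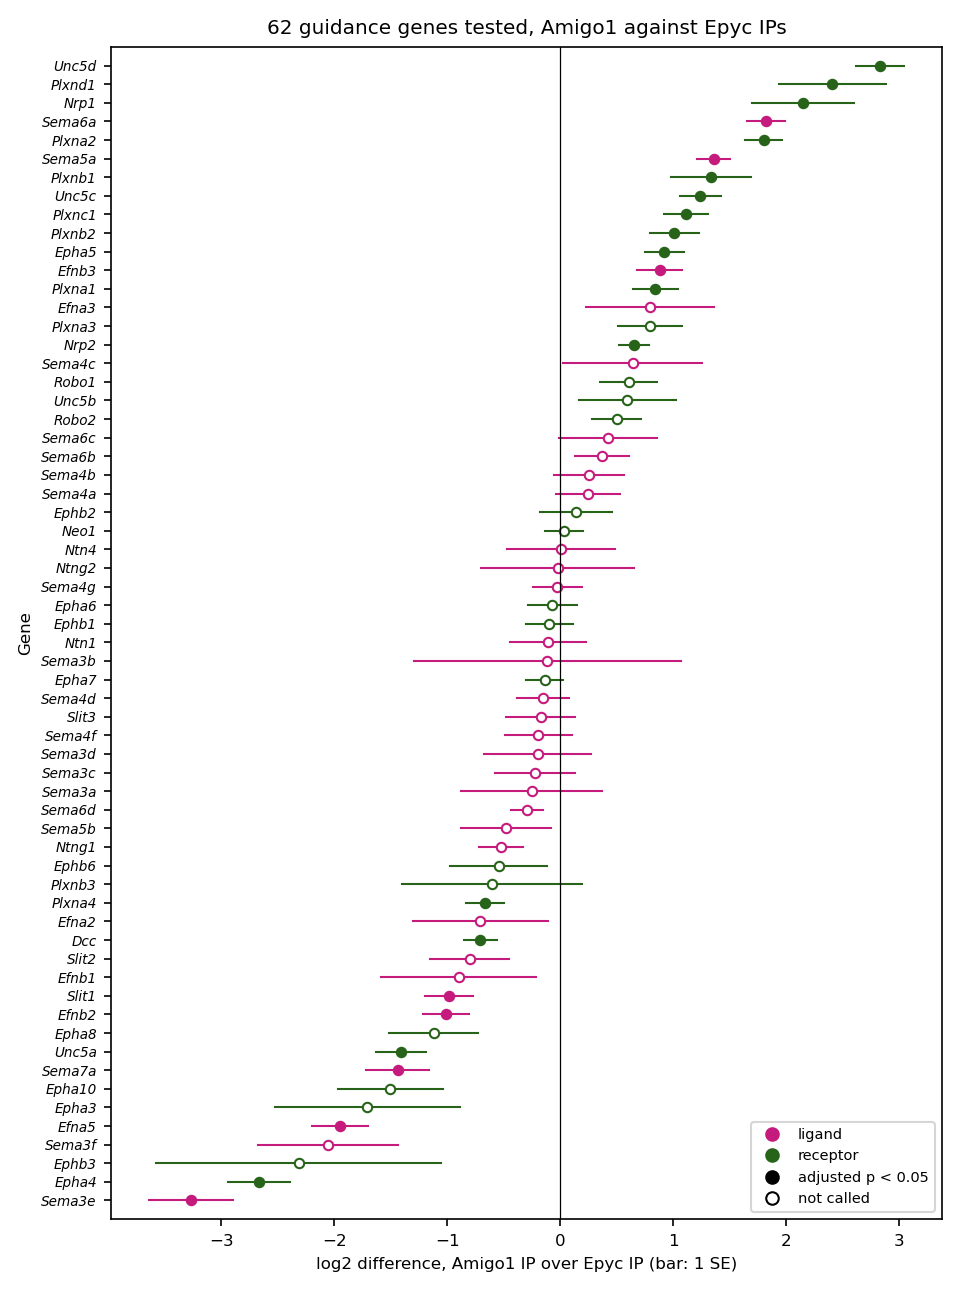
The log2 difference between Amigo1 and Epyc IPs for each of the 62 members tested, from higher in Amigo1 (top) to higher in Epyc (bottom); bars are 1 SE, colours mark ligands and receptors, and filled points passed adjusted p under 0.05. Unc5d (2.83) lies at the top and Sema3e (-3.27) at the bottom, and plexins and neuropilins crowd the upper end.

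The netrin receptors split between the 2 lines. Unc5d, a receptor of the family that mediates repulsion from netrins and also binds FLRT proteins, had 127, 194 and 179 CPM in Amigo1 IPs, against 31.6, 27, 20.6, 20.1 and 18.7 CPM in Epyc IPs. Every Amigo1 library lay at least 4-fold above every Epyc library (log2 difference 2.83 ± 0.21, adjusted p = 2.09e-06), the largest positive difference among the members. Unc5c had 96.4, 107 and 98.1 CPM in Amigo1 IPs, against 41.8, 41.8, 50.4, 48.2 and 32.1 CPM in Epyc IPs. The groups did not overlap (log2 difference 1.24 ± 0.18, adjusted p = 0.000718). Unc5a ran the other way, with 33.4, 34.6 and 28.6 CPM in Amigo1 IPs and 116, 95.2, 73.8, 63.9 and 81.6 CPM in Epyc IPs (log2 difference -1.41 ± 0.22, adjusted p = 0.00119). Dcc, the attractive netrin receptor and a co-receptor of UNC5 proteins, was also lower, at 163, 187 and 135 CPM in Amigo1 IPs and 252, 248, 276, 296 and 255 CPM in Epyc IPs (log2 difference -0.71 ± 0.15, adjusted p = 0.00823). Each Unc5a and Dcc value in Amigo1 IPs lay below each Epyc value. Neo1, the Dcc relative that also binds RGM proteins, averaged 151 ± 38.4 CPM in Amigo1 IPs and 149 ± 9.99 CPM in Epyc IPs (SD, n = 3 and 5; log2 difference 0.03 ± 0.17, adjusted p = 0.94), and Unc5b, low in both, overlapped. Ntn1, the secreted ligand of all these receptors, was at 15.7, 14.5 and 11.3 CPM in Amigo1 IPs and 21.1, 20.6, 10.8, 9.67 and 12.8 CPM in Epyc IPs, overlapping ranges (log2 difference -0.11 ± 0.34, adjusted p = 0.893).

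Genes of semaphorins and their receptors included the lowest member of the ranking (Sema3e) and, after Unc5d, the next highest (the plexin gene Plxnd1). Sema3e, a secreted semaphorin that can bind Plexin-D1 without a neuropilin, had 5.8, 2.12 and 4.58 CPM in Amigo1 IPs, against 31.9, 40.2, 36.1, 55.4 and 35.1 CPM in Epyc IPs, and Plxnd1, its receptor, had 26.6, 24.9 and 17.3 CPM in Amigo1 IPs, against 6.46, 2.84, 1.63, 2.62 and 8.14 CPM in Epyc IPs. Neither gene overlapped between the lines, and they moved in opposite directions: ligand lower (log2 difference -3.27 ± 0.37, adjusted p = 7.62e-05) and receptor higher (log2 difference 2.41 ± 0.48, adjusted p = 0.00623) in Amigo1 IPs. Nrp1, the neuropilin that pairs with plexins for Sema3a, had 19.9, 34 and 47.6 CPM in Amigo1 IPs and 2.23, 10.1, 9.1, 11.8 and 5.2 CPM in Epyc IPs (log2 difference 2.15 ± 0.45, adjusted p = 0.00886). Its Amigo1 values spread more than 2-fold but all lay above the Epyc values. Nrp2, the neuropilin preferred by Sema3f, had 322, 362 and 282 CPM in Amigo1 IPs and 227, 214, 186, 217 and 186 CPM in Epyc IPs, a smaller difference without overlap (log2 difference 0.65 ± 0.14, adjusted p = 0.00797).

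The promoters of this ligand and receptor pair are shown because the genes take opposite sides of the comparison. Each is the 250 bases before the RefSeq start in GRCm38.p6, 5′ to 3′ on the strand of the gene, Sema3e at chr5:14025026-14025275 on the plus strand and Plxnd1 at chr6:115995006-115995255 on the minus strand, with capitals at each GC box (GGGCGG, searched on both strands, so also CCGCCC).
Sema3e: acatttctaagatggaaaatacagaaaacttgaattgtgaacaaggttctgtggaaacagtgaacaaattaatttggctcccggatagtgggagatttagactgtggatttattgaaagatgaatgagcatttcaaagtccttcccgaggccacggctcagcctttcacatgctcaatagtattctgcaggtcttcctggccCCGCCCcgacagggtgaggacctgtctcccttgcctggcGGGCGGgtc
Plxnd1: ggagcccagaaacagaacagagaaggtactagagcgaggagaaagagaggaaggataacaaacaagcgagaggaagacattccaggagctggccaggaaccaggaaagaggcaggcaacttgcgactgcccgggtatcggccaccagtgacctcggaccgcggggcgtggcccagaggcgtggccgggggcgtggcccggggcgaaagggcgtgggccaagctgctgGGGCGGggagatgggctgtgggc
Sema3e holds 2 GC boxes and Plxnd1 holds 1; 32.7% of the 32851 promoter windows of this length hold at least 1. Neither window holds TATAAA (12.4% of windows) or TAATTA (4.84% of windows), on either strand. Of the 71 members, 61 had a promoter in the table.

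Sema6a and Plxna2, a class 6 semaphorin and a plexin that bind each other, were both higher in Amigo1 IPs. Sema6a, a membrane protein that can act as ligand and as receptor, had 332, 349 and 379 CPM in Amigo1 IPs and 107, 110.5, 90.7, 124 and 72.2 CPM in Epyc IPs (log2 difference 1.82 ± 0.17, adjusted p = 9.69e-06). Plxna2 had 163, 219 and 174 CPM in Amigo1 IPs and 50.6, 55.9, 46, 55.3 and 60.0 CPM in Epyc IPs (log2 difference 1.80 ± 0.16, adjusted p = 8.26e-06). Neither gene overlapped between the lines. Sema5a, a membrane semaphorin with thrombospondin repeats, had 418, 616 and 429.7 CPM in Amigo1 IPs and 188, 200.3, 199, 193 and 176 CPM in Epyc IPs (log2 difference 1.36 ± 0.14, adjusted p = 4.07e-05). Sema7a, the lipid-anchored semaphorin, was lower, at 14.8, 18 and 35.3 CPM in Amigo1 IPs and 65.9, 67.1, 58.4, 63.3 and 53.2 CPM in Epyc IPs (log2 difference -1.44 ± 0.28, adjusted p = 0.00537), and its plexin, Plxnc1, was higher (log2 difference 1.11 ± 0.20, adjusted p = 0.00284), both without overlap.

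Of 9 plexins, the receptors of semaphorins, 6 were called higher and 1 lower (3.96% of all genes higher, 4.09% lower). The others that were higher were Plxnb2 (log2 difference 1.01 ± 0.22, adjusted p = 0.0104), Plxna1 (log2 difference 0.84 ± 0.20, adjusted p = 0.0173) and Plxnb1 (log2 difference 1.33 ± 0.35, adjusted p = 0.0317), while Plxna4 was lower (log2 difference -0.67 ± 0.17, adjusted p = 0.0253). Plxnb1 overlapped, at 26.1, 38.5 and 13.4 CPM in Amigo1 IPs and 10.3, 9.59, 6.91, 11.1 and 14.1 CPM in Epyc IPs. The calls of Plxnb1 and Plxna4 were both lost when any 1 of the 6 baseline IPs was left out (adjusted p up to 0.15 for Plxnb1 and 0.0818 for Plxna4), and that of Plxna1 without Amigo1 baseline IP 4 (adjusted p = 0.0671) or Epyc baseline IP 4 (adjusted p = 0.0501). Plxna3 was not called (log2 difference 0.79 ± 0.28, adjusted p = 0.105).

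Of 17 Eph and ephrin genes tested, 3 were lower and 2 higher in Amigo1 IPs (4.09% of all genes lower, 3.96% higher). Epha4, a receptor that binds ephrins of both classes, had 20.6, 34.1 and 12.6 CPM in Amigo1 IPs, against 137, 133, 149.5, 155 and 152 CPM in Epyc IPs (log2 difference -2.67 ± 0.27, adjusted p = 2.9e-05). Efna5, a lipid-anchored ligand of EphA receptors, had 52.8, 48.2 and 29.2 CPM in Amigo1 IPs, against 156, 175, 208, 197 and 109 CPM in Epyc IPs (log2 difference -1.95 ± 0.25, adjusted p = 0.000212). In both genes the ranges stood at least 2-fold apart. Efnb2, a transmembrane ephrin, was lower as well, at 52.3 ± 7.75 CPM in Amigo1 IPs and 106 ± 22.3 CPM in Epyc IPs (log2 difference -1.01 ± 0.20, adjusted p = 0.00651). Epha5 (log2 difference 0.92 ± 0.17, adjusted p = 0.00441) and Efnb3 (log2 difference 0.88 ± 0.20, adjusted p = 0.0147) were higher in Amigo1 IPs. No other Eph or ephrin member passed the test, and of the Slit and Robo genes only Slit1 did, at 24.5, 29.8 and 33.3 CPM in Amigo1 IPs and 71.9, 60.5, 60.4, 46.9 and 51.2 CPM in Epyc IPs (log2 difference -0.99 ± 0.21, adjusted p = 0.0109; without Amigo1 baseline IP 1, adjusted p = 0.057). Robo1 (log2 difference 0.61 ± 0.25, adjusted p = 0.169), Robo2 (0.50 ± 0.21, adjusted p = 0.183), Slit2 (-0.80 ± 0.35, adjusted p = 0.19; without Amigo1 baseline IP 4, adjusted p = 0.0373) and Slit3 (-0.17 ± 0.30, adjusted p = 0.787) were not called.

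**Figure D2:**
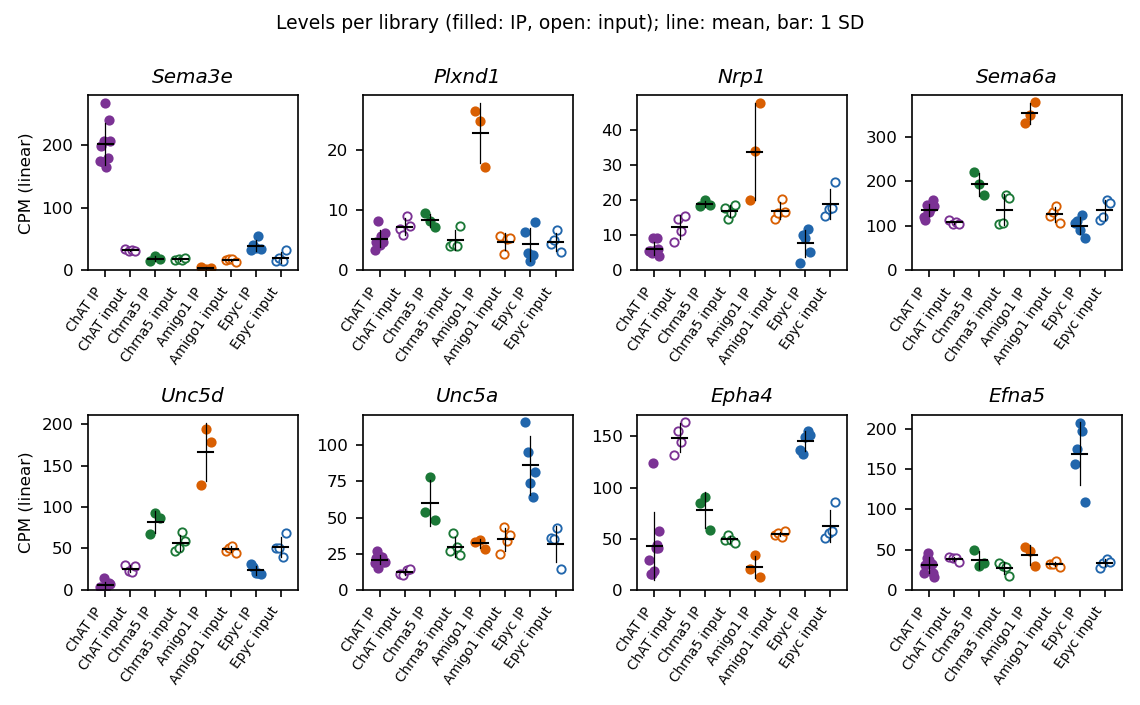
Levels in CPM (linear axis) of 8 members in each library without nicotine, for IPs (filled) and inputs (open) of the 4 lines; horizontal lines are means and vertical lines 1 SD. Unc5d, Plxnd1, Nrp1 and Sema6a have their highest means in Amigo1 IPs and Unc5a, Epha4 and Efna5 are higher in Epyc than in Amigo1 IPs, while the inputs of these IPN lines overlap.

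Set against their own inputs the lines differed for 19 of 67 members, 11 with a larger and 8 with a smaller IP-to-input difference in Amigo1 than in Epyc (28.4%), against 4.07% of all genes (2.08% smaller). By role, 11 of 33 receptors and 8 of 34 ligands were called in this test. Not called here, though called between the IPs, were Plxna1 (difference of differences 0.75 ± 0.25, adjusted p = 0.107), Plxna4 (-0.42 ± 0.28, adjusted p = 0.487), Plxnb2 (0.89 ± 0.29, adjusted p = 0.0927), Nrp2 (0.60 ± 0.23, adjusted p = 0.169) and Efnb2 (-0.69 ± 0.33, adjusted p = 0.292). Sema3f was called here (-2.47 ± 0.67, adjusted p = 0.0358) but not between the IPs (log2 difference -2.05 ± 0.62, adjusted p = 0.0589), and its call here was lost in 14 of 19 alternative fits; those of Plxnd1 and Plxnb1 were lost in 7 of 19 each. These tests share the IP libraries and are no independent support for each other. Other genes of the pathway were counted in a pair of lists. Of 22 co-receptors, adhesion partners and extracellular partners tested, 6 were higher and 3 lower, among them the UNC5 ligands Flrt2 (0.77) and Flrt3 (0.80) and the netrin receptor Dscam (0.58), all higher in Amigo1 IPs, and the adhesion gene Chl1 (-1.58) and Lrrc4 (-1.66), which encodes the netrin-G2 partner NGL-2, both lower. Of 42 intracellular signalling genes tested, 4 were higher and 4 lower, including the exchange factor genes Ngef (0.88) and Vav3 (-1.89) and the kinase genes Fyn (0.81) and Limk1 (-1.26). Over all genes 3.96% were higher and 4.09% lower. The list medians were 0.30 and -0.06, against 0.01 over all genes.

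In the MHb, many of these genes differed between ChAT IPs and inputs, as did many genes outside the set. Of 68 members tested, 24 were higher and 23 lower in ChAT IPs than in MHb inputs (69.1%, against 53.1% of all genes tested), and 13 of the higher and 17 of the lower calls were at least 2-fold. With the baseline libraries alone 20 of 69 were higher and 8 lower, 28 in all, a share near the 38.1% of all genes called in that fit. With the saline-injected saccharin libraries alone, the pools that have both fractions, 10 of 65 were higher and 17 lower (23% of all genes called). Without ChAT baseline IP 1, the library with the most astrocyte RNA, 27 of 68 were higher and 23 lower (57.1% of all genes called). Restricted to the 3 IPs on the gene list of the inputs, 26 of 69 were higher and 22 lower (51.1% of all genes called). The baseline inputs, left and right MHb of 9 males, may be sides of the same animals. Without either of them 43 or 40 members were called (47% or 46.3% of all genes). Markers beyond glia moved too: 4 of 4 GABAergic markers were lower in ChAT IPs (median -2.82). Of 8 pan-neuronal markers 2 were higher and 3 lower (-0.28), and of 8 endothelial and mural markers 1 was higher and 1 lower (-0.54). The part of these cell types in the members' differences was not tested.

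Of the Slit and Robo genes, 2 Slits and 2 Robos were higher, 1 Slit was lower, and 2 Robos were not called. Over all genes 53.1% were called in this comparison (23.7% higher, 29.4% lower). Robo3 (chr9:37415669-37433246), a receptor that in commissural neurons of the mouse hindbrain and spinal cord controls midline crossing, had a lowest, median and highest value of 22.9, 33.8 and 40.2 CPM in 9 ChAT IPs, against 5.14, 5.09, 5.06 and 5.11 CPM in 4 inputs (log2 difference 2.66 ± 0.15, adjusted p = 5.87e-09). Even the lowest IP was over 4 times the inputs. Robo1 had 177, 257 and 277 CPM in ChAT IPs (lowest, median and highest), against 89.9, 99, 97.5 and 93 CPM in inputs (log2 difference 1.28 ± 0.12, adjusted p = 1.02e-06). Slit2, a secreted Robo ligand, had 118, 157 and 181 CPM in ChAT IPs, against 30.2, 34.2, 32.5 and 27 CPM in inputs (log2 difference 2.20 ± 0.15, adjusted p = 2.92e-08). Ligand and receptors were thus higher in the same IPs without overlap. Slit1 was higher (log2 difference 0.90 ± 0.18, adjusted p = 0.000702), Slit3 lower (log2 difference -1.18 ± 0.35, adjusted p = 0.0106), and Robo2 (log2 difference -0.17 ± 0.17, adjusted p = 0.431) and Robo4 were not called.

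The Robo3 promoter is shown because ChAT libraries carry this RNA and IPN libraries hold almost none. It is the 250 bases before the RefSeq start on the minus strand at chr9:37433176-37433425 (GRCm38.p6), with capitals at GC boxes and at TAATTA, the core that many homeodomain factors bind.
Robo3: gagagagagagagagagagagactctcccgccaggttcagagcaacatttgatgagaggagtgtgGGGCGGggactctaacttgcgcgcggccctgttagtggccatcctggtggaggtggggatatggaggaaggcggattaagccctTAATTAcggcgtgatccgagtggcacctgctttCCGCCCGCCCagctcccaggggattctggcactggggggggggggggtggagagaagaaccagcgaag
It holds 3 GC boxes, of which 2 overlap, and 1 TAATTA, which is its own reverse complement and occurs in 4.84% of windows. The gene coordinates given above are from GENCODE and place the gene's start at 37433246, inside this window. By those coordinates the last part of the window, with the 2 overlapping GC boxes, lies within the gene. A match is a description of these letters, and no factor was measured at this site.

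Semaphorin receptors were among the most abundant members in ChAT IPs. Nrp2 had 478, 717 and 932 CPM in ChAT IPs (lowest, median and highest), against 110.4, 129, 117 and 109 CPM in inputs (log2 difference 2.52 ± 0.16, adjusted p = 1.44e-08). Plxnc1 had 585, 707 and 832 CPM in ChAT IPs, against 124, 153, 161 and 152 CPM in inputs (log2 difference 2.19 ± 0.13, adjusted p = 8.82e-09). In both genes the lowest IP stood more than 3-fold above the highest input. Per kb of exon these were the top members in ChAT IPs, at 85.3 CPM per kb for Plxnc1 and 59.6 for Nrp2, followed by Sema5a at 34.2, Sema3e at 21.8 and Efnb3 at 21.4. Sema3e had 166, 199.8 and 267 CPM in ChAT IPs, against 30.6, 33.2, 31 and 33.9 CPM in inputs (log2 difference 2.57 ± 0.15, adjusted p = 5.87e-09), and here its receptor gene Plxnd1 was low and slightly lower (log2 difference -0.55 ± 0.22, adjusted p = 0.0477). Sema5a (log2 difference 1.68 ± 0.17, adjusted p = 1.05e-06) and Sema4d, whose receptors are class B plexins (log2 difference 1.34 ± 0.14, adjusted p = 1.52e-06), were higher too, and Nrp1 was lower (log2 difference -1.07 ± 0.23, adjusted p = 0.00118).

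Netrin genes fell on both sides. Ntng2, a lipid-anchored netrin-G that binds NGL-2 rather than DCC, had 22.1, 34.7 and 72.4 CPM in ChAT IPs, against 13.3, 12.7, 11.8 and 12.6 CPM in inputs (log2 difference 1.61 ± 0.28, adjusted p = 0.000221). Ntng1, the netrin-G that binds NGL-1, had 75.5, 129 and 392 CPM in ChAT IPs, against 630.4, 692, 685 and 625 CPM in inputs (log2 difference -2.08 ± 0.32, adjusted p = 0.000112). These paralogs thus took opposite directions, and neither overlapped, though the highest Ntng1 value was that of ChAT baseline IP 1. 14.0% of Ntng2 exon bases lie in another gene on the same strand, so its count is uncertain. Of the UNC5 genes, Unc5b (log2 difference -2.46 ± 0.33, adjusted p = 2.46e-05), Unc5d (-2.22 ± 0.46, adjusted p = 0.000988) and Unc5c (-2.02 ± 0.47, adjusted p = 0.00273) were lower in ChAT IPs and Unc5a was higher (0.69 ± 0.15, adjusted p = 0.00136). Ntn1 was lower, at 0.0406, 0.867 and 1.7 CPM in ChAT IPs and 4.01, 3.59, 3.01 and 4.87 CPM in inputs (log2 difference -2.07 ± 0.48, adjusted p = 0.00214), and Dcc was not called (log2 difference 0.55 ± 0.28, adjusted p = 0.112).

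Ephs and ephrins were mixed. Epha8 had 23.8, 42 and 56.1 CPM in ChAT IPs, against 8.56, 8.43, 11.3 and 5.21 CPM in inputs (log2 difference 2.20 ± 0.23, adjusted p = 2.33e-06). Efnb2 had 0.433, 1.38 and 2.94 CPM in ChAT IPs, against 5.16, 8.68, 7.62 and 10.5 CPM in MHb inputs, with a log2 difference of -2.62 ± 0.40, adjusted p = 7.06e-05. Each pair of ranges was separate, Epha8 upward and Efnb2 downward. Epha4 had 15.5, 40.9 and 124 CPM in ChAT IPs, against 156, 144, 164 and 132 CPM in inputs (log2 difference -1.85 ± 0.46, adjusted p = 0.00365). Its top value came from ChAT baseline IP 1 and lay just under the inputs, and its level differed between gene lists within the ChAT IPs (log2 difference of the second list over the first -1.45 ± 0.30, adjusted p = 0.0203). In the whole set, 1 member was higher and 3 lower on the second list, the others being Efna5 (log2 difference 0.86 ± 0.20, adjusted p = 0.0376), Efna3 (-2.66 ± 0.34, adjusted p = 0.00217) and Sema5b (-2.62 ± 0.65, adjusted p = 0.0447); 9.13% of all genes were called in that comparison (4.23% higher, 4.9% lower), of 2 IPs against 3 that differ in treatment as well. Leaving out 1 of these 5 IPs gave 0 (saline pump) to 20 (saline-injected saccharin 2, on the first list) calls among the members (2.91% and 26.3% of all genes).

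**Figure D3:**
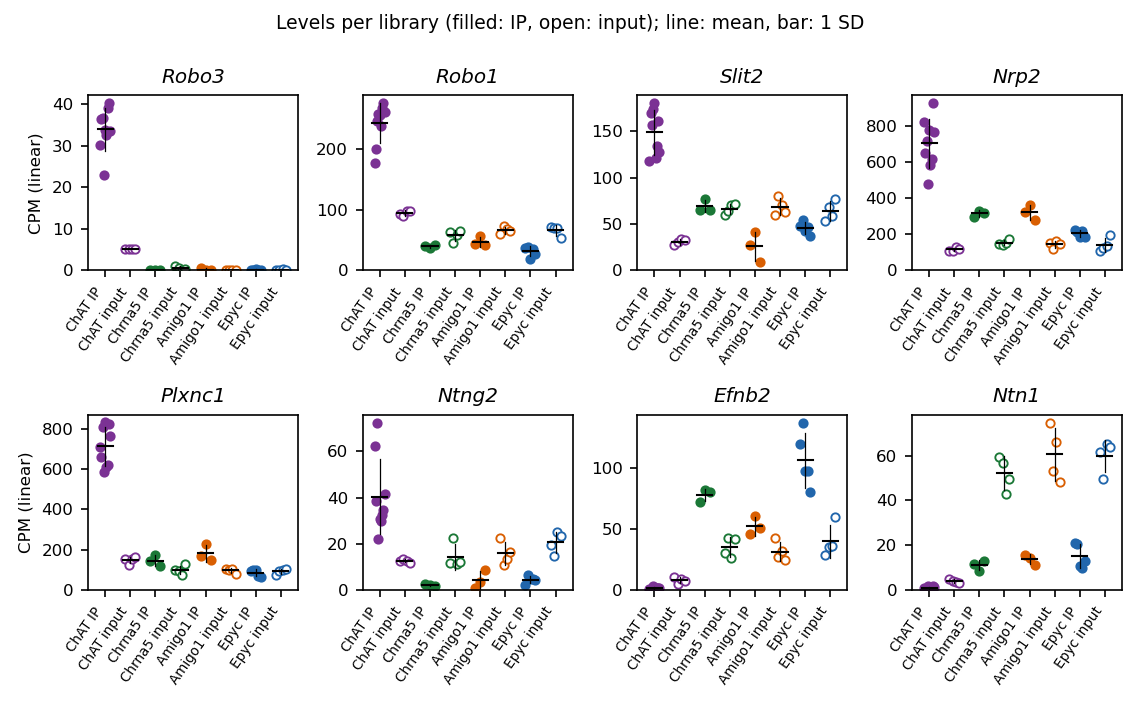
Levels in CPM (linear axis) of 8 members in each library without nicotine, for IPs (filled) and inputs (open) of the 4 lines; horizontal lines are means and vertical lines 1 SD. Robo3, Robo1, Slit2, Nrp2, Plxnc1 and Ntng2 are highest in the ChAT IPs, Efnb2 is lowest there, and Ntn1 is lower in the IPs than in the inputs of each line.

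Each IPN line had fewer members called against its inputs than the ChAT line, but its fit also held fewer IPs. The sizes of these sets therefore cannot be compared between lines. In the Chrna5 line 16 of 66 members tested were higher and 9 lower in IPs than in inputs (37.9%, against 33% of all genes). In the Amigo1 line 17 of 67 were higher and 17 lower (50.7%, against 30.6%). With the IPs and inputs of the same 3 pools and a replicate block, 13 were higher and 6 lower there, 19 of 66 in all (17.8% of all genes in that fit), and without Amigo1 baseline input 2 or 4 the calls numbered 22 or 21 (21.7% of all genes in each). In the Epyc line 14 of 63 were higher and 15 lower (46%), against 36.1% of all genes (20.2% lower). The Chrna5 share lay near the background. Glial marker sums were lower in the same IPs, for example oligodendrocyte markers at 269 to 527 CPM in Chrna5 IPs and 5352 to 8206 CPM in Chrna5 inputs. All 6 dopamine and serotonin neuron markers were lower too in the Chrna5, Amigo1 and Epyc IPs (medians -3.70, -2.56 and -3.32), as were 8, 1 and 4 of the 8, 8 and 7 endothelial and mural markers tested (medians -4.26, -1.27 and -2.29). The part of these cell types in the lower calls was not tested.

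Over the 4 lines, whose libraries do not overlap, 57 members were called in at least 1 line and 14 in none. Of the 63 members tested in all 4 lines, 85.7% were called in at least 1, against 73.1% of the 13640 genes tested in all 4. Nrp2 and Epha7 were higher in all 4 (3.17% of these members, 2.29% of all genes) and Ntn1, Unc5b and Plxnb3 lower in all 4 (4.76% of members, 6.06% of all genes), shares near the background. Ntn1 had 11.8, 8.48 and 12.8 CPM in Chrna5 IPs and 59.6, 56.8, 43 and 49.5 CPM in their inputs (log2 difference -2.31 ± 0.22, adjusted p = 3.67e-06), with log2 differences of -2.15 and -2.04 in the Amigo1 and Epyc lines. Plxnb3, a plexin whose RNA in mouse brain is best known from oligodendrocytes, had log2 differences of -4.13, -4.10 and -3.30 in the Chrna5, Amigo1 and Epyc lines. Unc5b had -3.12, -2.02 and -2.51. Unc5b encodes a receptor that is also known from blood vessels.

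In 4 members the ChAT line and all 3 IPN lines were called in opposite directions: Efnb2 and Ntng1 were lower in ChAT IPs and higher in the IPN IPs, and Ntng2 and Robo1 the reverse. That pattern held for 6.35% of the 63 members and 1.55% of the 13640 genes. Efnb2 had 72.5, 81.8 and 80.3 CPM in Chrna5 IPs, against 30.3, 42.9, 26 and 41.5 CPM in inputs (log2 difference 1.09 ± 0.19, adjusted p = 0.000807), with log2 differences of 0.71 and 1.37 in the Amigo1 and Epyc lines. Ntng1 was higher by 0.88, 0.78 and 1.33 in the Chrna5, Amigo1 and Epyc lines, and Ntng2 stood at -2.89, -1.91 and -2.26. Robo1 was lower by smaller amounts, at -0.60, -0.51 and -1.13. The Amigo1 calls of Ntng2 (adjusted p = 0.0756) and Robo1 (adjusted p = 0.132) were lost with the replicate block.

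**Figure D4:**
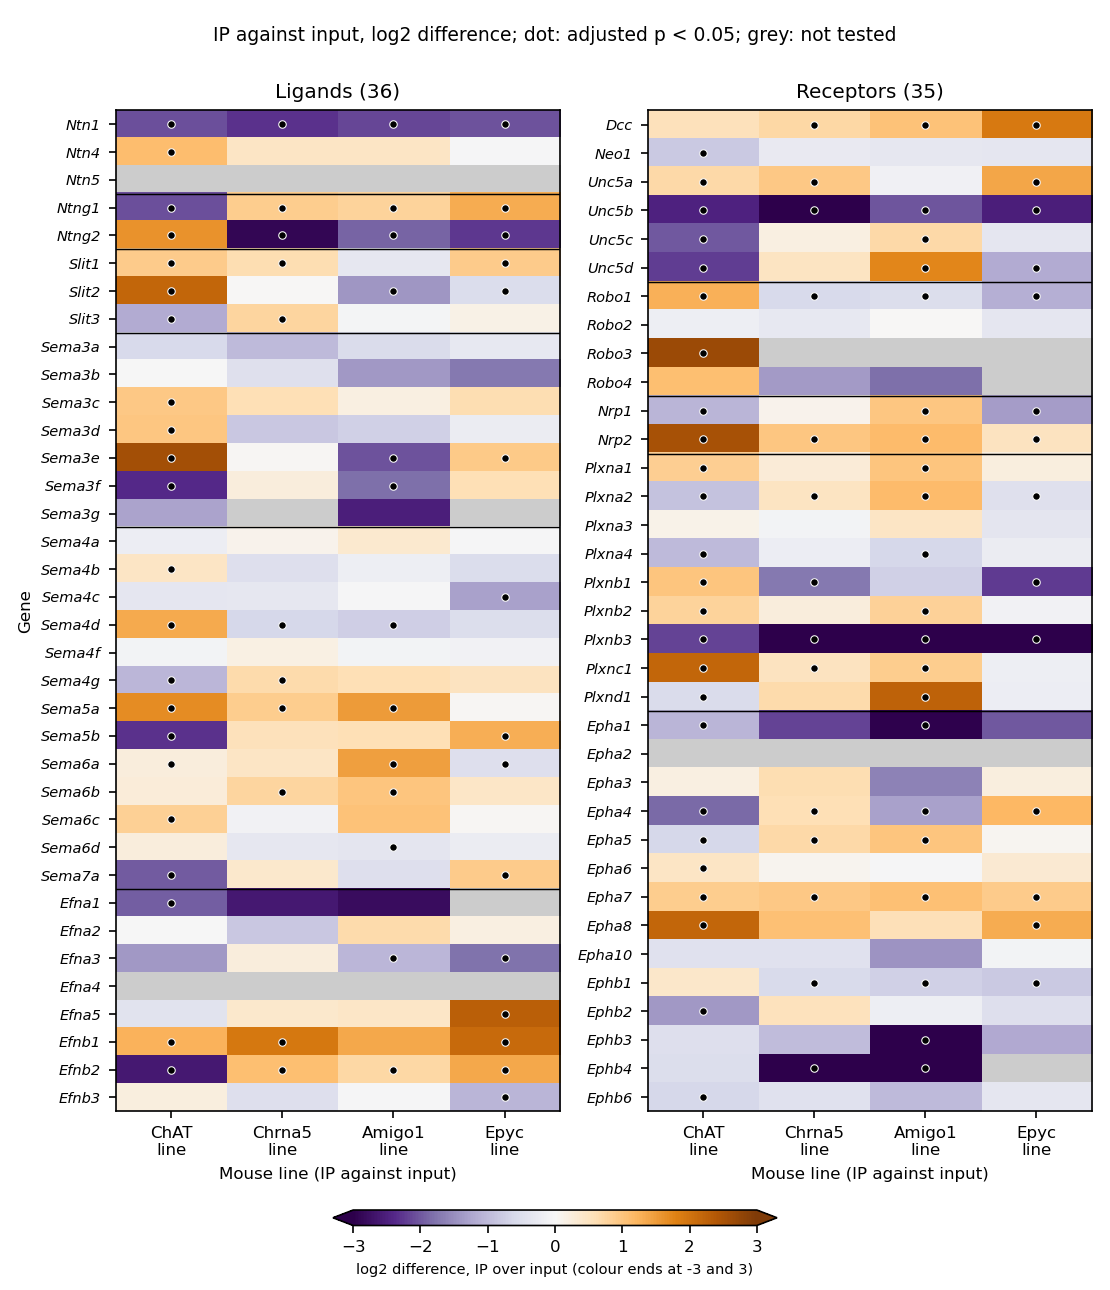
The log2 difference between IP and input for all 71 members in each line, orange where higher in the IP and purple where lower, with a dot at adjusted p under 0.05 and grey where counts were too low to test; lines between rows separate families. Ntn1, Unc5b and Plxnb3 are purple across the row, and Ntng1, Ntng2, Efnb2 and Robo1 change colour between the ChAT column and the IPN columns.

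Dcc was higher in the IPs of all 3 IPN lines, by 0.72, 1.03 and 1.90 in the Chrna5, Amigo1 and Epyc lines. In Epyc IPs it had 252, 248, 276, 296 and 255 CPM, against 69.8, 71.2, 79.4 and 54.9 CPM in inputs (log2 difference 1.90 ± 0.14, adjusted p = 5e-08), and the groups lay far apart. Efna5 showed the largest positive difference in the Epyc line, at 156, 175, 208, 197 and 109 CPM in IPs, against 27.4, 33.9, 38 and 34.4 CPM in inputs (log2 difference 2.29 ± 0.19, adjusted p = 1.42e-07). Plxnd1 did so in the Amigo1 line, at 26.6, 24.9 and 17.3 CPM in IPs, against 5.77, 2.69, 5.16 and 5.43 CPM in inputs (log2 difference 2.25 ± 0.33, adjusted p = 0.000975). Efnb1 had the largest positive difference in the Chrna5 line (log2 difference 1.94 ± 0.37, adjusted p = 0.00143). Amigo1 IPs were also above their inputs for Unc5d (log2 difference 1.75 ± 0.17, adjusted p = 8.27e-05), Sema6a (1.47 ± 0.14, adjusted p = 5.81e-05) and Plxna2 (1.13 ± 0.15, adjusted p = 0.000525), all lower in Epyc IPs than in Epyc inputs (-1.19, -0.48 and -0.45; with the replicate block the Plxna2 call in Epyc was lost, adjusted p = 0.0678).

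Members differed in level within each population as well. Per kb of exon, the highest in Amigo1 IPs were Sema6a (40.2 CPM per kb), Efnb3 (38.5) and Nrp2 (27.2), in Epyc IPs Efna5 (41.9), Ntng1 (32.3) and Sema6d (26.4), and in Chrna5 IPs Efnb3 (28.9), Nrp2 (26.7) and Ntng1 (25.4). Between 9 and 11 members averaged under 1 CPM in the IPs of each line without nicotine, among them Efna1, Efna4, Epha2, Robo4 and Sema3g in all 4.

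ChAT and Chrna5 IPs were compared directly on the 3 libraries of each that share a gene list. All these ChAT IPs came from mice on saccharin water, and the Chrna5 IPs came from baseline mice. Saccharin, tissue, driver and transgene design (single against double transgenic) therefore cannot be told apart from line here. Of 66 members tested, 12 were higher and 23 lower in ChAT IPs (53%, against 32.7% of all genes). Markers differed as well: 3 of 5 endothelial and mural markers (median 2.59) and 2 of 6 oligodendrocyte precursor markers (0.85) were higher in ChAT IPs, and 6 of 8 pan-neuronal (-0.79), 4 of 4 GABAergic (-6.10) and 5 of 6 dopamine and serotonin neuron markers (-6.04) were lower. Their part in the members' differences was not tested. Robo3 had a mean of 34.7 CPM in these ChAT IPs and 0 counts in each Chrna5 IP, where 3 counts correspond to 0.0682 to 0.194 CPM. The Robo3 mean over all 9 ChAT IPs, which use 3 gene lists, was 253-fold above the mean floor of 3 counts per Chrna5 library. Amigo1 and Epyc IPs held 8 and 7 Robo3 counts in all. The 6 libraries also separated on Sema3e (log2 difference 3.48 ± 0.22, adjusted p = 2.46e-06), Robo1 (2.59 ± 0.21, adjusted p = 1.11e-05) and Plxnc1 (2.40 ± 0.18, adjusted p = 6.11e-06), all higher in ChAT IPs. Lower in ChAT IPs were Efnb2 (log2 difference -5.83 ± 0.41, adjusted p = 4.39e-06), Unc5d (-3.65 ± 0.34, adjusted p = 3.02e-05), Dcc (-3.08 ± 0.22, adjusted p = 5.29e-06), Epha5 (-2.41 ± 0.24, adjusted p = 5.04e-05) and Ntn1 (-3.04 ± 0.39, adjusted p = 0.000233). The IP-to-input difference itself differed between these lines for 33 of 69 members, 15 larger and 18 smaller in ChAT (47.8%, against 24.9% of all genes), as it did for 6 of 8 endothelial and mural markers, all larger in ChAT (median 4.33).

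The 12 IPN inputs and 4 MHb inputs also differed as whole tissues. Of 69 members tested, 32 were higher and 13 lower in IPN (65.2%, against 32.8% of all genes); in tissue, fewer cells of a type and less RNA per cell cannot be told apart. Markers of several cell types moved too, higher in IPN for 6 of 6 dopamine and serotonin neuron markers (median 8.97), 4 of 4 GABAergic (2.57), 9 of 10 oligodendrocyte (1.18), 8 of 10 astrocyte (0.58) and 5 of 8 endothelial and mural (1.09). Their part in the members' differences was not tested. Without the left or the right MHb input 41 or 40 members were called (25.8% or 26.7% of all genes). Ntn1 had 59.6, 56.8, 43 and 49.5 CPM in Chrna5 inputs, 74.7, 53.3, 66 and 48.3 CPM in Amigo1 inputs and 61.5, 49.4, 65.1 and 63.8 CPM in Epyc inputs, against 4.01, 3.59, 3.01 and 4.87 CPM in MHb inputs (log2 difference 3.85 ± 0.18, adjusted p = 1.81e-14). Dcc was higher too, at 66.6 to 109, 65.7 to 86.2 and 54.9 to 79.4 CPM in the Chrna5, Amigo1 and Epyc inputs and 16.5, 19.4, 22 and 17.5 CPM in MHb inputs (log2 difference 2.0 ± 0.16, adjusted p = 2.29e-10). RNA of the ligand and of its receptor was thus more abundant in IPN tissue, with no overlap between the tissues. Efnb2 (log2 difference 2.10 ± 0.23, adjusted p = 9.56e-08), Plxnb1 (1.57 ± 0.16, adjusted p = 3.27e-08), Slit1 (1.39 ± 0.15, adjusted p = 6.2e-08) and Slit2 (1.04 ± 0.12, adjusted p = 1.55e-07) were higher in IPN as well. Lower in IPN were Robo3 (log2 difference -4.49 ± 0.66, adjusted p = 7.3e-06), Ntng1 (-2.69 ± 0.09, adjusted p = 7.28e-18), Epha4 (-1.48 ± 0.12, adjusted p = 3.25e-10), Sema3e (-0.87 ± 0.16, adjusted p = 0.00017), Unc5c (-0.76 ± 0.11, adjusted p = 7.29e-06) and Robo1 (-0.64 ± 0.11, adjusted p = 5.15e-05). Ntng1 stood at 96.5 to 130.3, 98.1 to 114 and 84.2 to 115 CPM in the Chrna5, Amigo1 and Epyc inputs, against 630.4, 692, 685 and 625 CPM in MHb inputs, although ChAT IPs were below their own inputs.

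In the main fits edgeR called no member for nicotine in any line, though some alternative fits did. Counts of members at an unadjusted p under 0.05 are given without the share of all genes at that threshold. They cannot be read as results about the members. In the ChAT IPs on the second gene list (3 nicotine, 2 control) 0 of 67 members were called (0% of all genes called), and 6 had an unadjusted p under 0.05. DESeq2 called 0 members, and without the saline-injected nicotine IP edgeR called 8 of 66 (10.6% of all genes in that fit). The 2 controls are the saline pump IP, from mice without saccharin, and a saline-injected saccharin IP, so saccharin and route differ between these groups as well. In the Amigo1 IPs (3 and 3) 0 of 59 were called (0% of all genes called), and 9 had an unadjusted p under 0.05. DESeq2 called 9 of 65 there (12.2% of all genes). In the Epyc IPs (2 and 5) 0 of 66 were called (0.00724% of all genes called), and 9 had an unadjusted p under 0.05. DESeq2 called 1 of 67 (0.611% of all genes), and without nicotine pump IP 1 edgeR called 2 of 67 (0.502%). Control mice of the Amigo1 line had no saccharin, and the nicotine libraries carry later serial numbers in their names. Saccharin, library series and nicotine therefore cannot be told apart there. In the Epyc line both nicotine pools had pumps, but among the controls only the saline pump pool did. Pump and nicotine are therefore largely mixed in that comparison.

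The Amigo1 nicotine IPs were erratic for these genes. Ephb1, a receptor of class B ephrins, had 0.855, 182 and 1.81 CPM in the 3 nicotine IPs, against 33.2, 33.8 and 32 CPM in the 3 controls. Among 44 members averaging at least 5 CPM, 18 varied over 10-fold between these 3 libraries, against 1 of 52 in the Amigo1 controls. 29 of 71 members were at 0 in at least 1 of them, against 11 in the controls, and they detected 9195 to 9569 genes at 1 CPM or more, against 12029 to 12642. Sema6a, the member with the lowest p there, was at 1070, 982 and 677 CPM in nicotine IPs and 332, 349 and 379 CPM in controls (log2 difference 1.45 ± 0.34, adjusted p = 0.101), separate but not called.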

How the data were processed

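The deposited values are raw counts by gene symbol in separate files for 28 IPs and 16 inputs. Per the submitters' processing notes they used the mm10 build, STAR 2.3.0e, HTSeq and DESeq2; library preparation was Ovation V2 amplification and TruSeq DNA Nano, per the labels' protocols, with no strand or molecular identifier stated. Counts of reads outside genes, not unique or ambiguous were left out. CPM were scaled by TMM over the 22682 symbols found in all files. Comparisons used edgeR 4.0.16 (R 4.3.3) quasi-likelihood tests with TMM, filterByExpr at a minimum count of 10 and Benjamini-Hochberg adjustment over all genes tested; SE is the log2 difference over the square root of F. The fit was tested on simulated data. Alternatives were DESeq2 1.42.0, RLE scaling, no filter, each library left out, replicate blocks and treatment subsets. Members are named with values where called with a mean of at least 5 CPM in either group (up to 12 a direction), and the netrin receptors, Ntn1, Slits, Robo1 to Robo3, neuropilins and class A plexins also where not called; of other pathway genes, called ones of largest difference. Members outside that rule that the text gives values for, such as Ephb1 in nicotine IPs, were chosen after their values were seen. Members and lists were chosen with earlier results of these data known. IP and input of 1 pool come from the same homogenate, per the labels' protocols, so pool numbers pair them; deviations of same-numbered libraries correlated at 0.263 in ChAT, 0.108 to 0.176 in Chrna5, 0.038 to 0.05 in Amigo1 and 0.036 to 0.053 in Epyc. Floors cover counting error only, and p-values measure the spread between libraries, of which the baseline ChAT inputs may be 2 sides of the same mice. Exon overlaps with other genes covered 23.4% of bases for Ntn5, 14.1% for Efna3, 14.0% for Ntng2, 10.7% for Plxna1 and 10.5% for Efna4, which makes their counts uncertain. Promoters are from RefSeq (GRCm38.p6). Ntn3 is not in every file and was not tested.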

Additional observations from a re-analysis of the deposited data

Results flagged for a closer look

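ChAT baseline IP 1 lay far above the other 8 ChAT IPs for 9 members: Epha4 at 124 CPM, Ephb2 at 6.63 CPM, Neo1 at 134 CPM, Ntng1 at 392 CPM, Plxna4 at 102 CPM, Sema5b at 5.85 CPM, Slit3 at 17.8 CPM, Unc5b at 11.4 CPM and Unc5c at 73.0 CPM. It is also the library with the highest astrocyte marker sum among them, and the part of that RNA was not tested. ChAT IP 2 with saccharin water and a saline injection lay above the others for Ntn4 (23.4 CPM). Among inputs, the lowest Plxna1 value stood apart in ChAT baseline input 1 (38.0 CPM), the highest Ntng2 value in Chrna5 input 2 (22.7 CPM), the lowest Sema4d value in Chrna5 input 1 (42.6 CPM), the highest Unc5b value in Amigo1 baseline input 2 (59.6 CPM), and in Epyc saline pump input 2 the Epha7 value (96.8 CPM) and the lowest Robo1 value (52.8 CPM). These are 16 of 161 groups of 4 to 9 libraries examined, where chance gives about 5%.

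The difference between IP and input itself differed between the Amigo1 and Epyc lines by edgeR's test of the difference. It was larger in Amigo1, on the log2 scale, for Unc5d (2.90), Plxnd1 (2.40), Nrp1 (2.29), Sema6a (1.91), Plxna2 (1.55), Plxnb1 (1.48), Sema5a (1.46), Plxnc1 (1.03), Unc5c (1.00), Efnb3 (0.99) and Epha5 (0.89). It was smaller in Amigo1 for Sema3e (-3.01), Epha4 (-2.50), Sema3f (-2.47), Efna5 (-1.90), Unc5a (-1.56), Sema7a (-1.43), Slit1 (-1.24) and Dcc (-0.90). Over 19 alternative fits the calls of Sema3f (14), Plxnd1 (7), Plxnb1 (7), Sema7a (3) and Unc5a (1) were lost in the number given.

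The same test between the ChAT and Chrna5 lines, on libraries that share a gene list, gave larger differences in ChAT for Ntng2 (4.69), Plxnb1 (2.83), Sema3e (2.59), Slit2 (2.07), Robo1 (1.87), Sema4d (1.83), Nrp2 (1.80), Plxnc1 (1.80), Sema3d (1.79) and Ephb1 (1.12). It gave smaller ones in ChAT for Efnb2 (-3.69), Ntng1 (-2.99), Sema5b (-2.58), Unc5d (-2.51), Epha4 (-2.45), Slit3 (-2.30), Sema7a (-2.30), Unc5c (-2.29), Sema3f (-2.09), Sema4g (-1.93), Ephb2 (-1.92), Efna5 (-1.47), Nrp1 (-1.43), Plxna2 (-1.31), Dcc (-0.84) and Plxna4 (-0.82). Over 17 alternative fits the calls of Sema3f (5) and Dcc (3) were lost. Robo3 is left out because the Chrna5 IPs are all at 0.

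Ntn3, a netrin gene outside the tests because the first gene list lacks it, reached 379 counts in Epyc nicotine pump IP 2, the highest of the 22 libraries that list it.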

How the results depend on the processing

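Counts of members called stayed within 1.5 times their value in the main fit under RLE scaling and without a filter on low counts in every comparison, and under DESeq2 except in the 3 named next. DESeq2 called 9 members for nicotine in Amigo1, 1 in Epyc and 9 for the gene list shift in ChAT IPs, where edgeR called 0, 0 and 4. For ChAT IPs against inputs (47 called) the baseline libraries alone gave 28, the saline-injected saccharin libraries alone 27, which is also the paired pools without a replicate block, and with a replicate block 36 (39.2% of all genes). For Amigo1 IPs against inputs (34 called) the paired pools gave 19 with the replicate block and 22 without it. The block moved the Chrna5 count to 28 and the Epyc count to 27. Named calls lost under the block were Efnb1 and Plxna1 in ChAT, Ephb1 and Slit3 in Chrna5, Efna3, Ephb1, Nrp1, Ntng2, Plxna4, Robo1, Sema3f, Sema4d and Sema6b in Amigo1, and Plxna2, Sema4c and Slit2 in Epyc. Fitting Amigo1 against Epyc IPs with the nicotine IPs gave 3 calls in place of 23. Uninjected nicotine against saccharin water in ChAT IPs, across 2 gene lists, gave 3. For this count, the block counts of Chrna5 and Epyc and the ranges that follow, the share of all genes called is not given. They show how far the counts moved and cannot be read as results about the members. Leaving out 1 library gave 40 to 50 calls for ChAT, 19 to 25 for Chrna5, 21 to 41 for Amigo1 and 25 to 30 for Epyc IPs against inputs, 20 to 28 for Amigo1 against Epyc IPs, 39 to 48 for IPN against MHb inputs, 32 to 35 for ChAT against Chrna5 IPs, 14 to 21 and 30 to 34 for the differences between lines, 0 to 8 for nicotine in ChAT, 0 to 2 in Epyc, 0 in Amigo1 and 0 to 20 for the gene list shift. No named member called in the main or the alternative fit changed direction. Changes of direction in named members called in neither, and in members not named, were not counted. Over named members and alternatives 5031 values kept their side of the threshold, 267 lost and 32 gained a call. The 5031 include members named though not called in the main fit, as in the nicotine comparisons, which had no call to lose. The causes of lost and gained calls were not tested. With 2 or 3 libraries in most IP groups, a member not called may still differ.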
